A study of Mus musculus with 12 samples.

Results

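Genes of the secondary (specific) and tertiary (gelatinase) granules of neutrophils, or of the late neutrophil stages that make them, were followed across 12 arrays, 10 in all: Ltf, Camp, Ngp, Lcn2, Mmp8, Mmp9, Fcnb, Cd177, Olfm4 and Padi4. They were the probe sets whose only gene symbol in the platform annotation was one of these names, which gave 11 probe sets for the 10 genes, out of 45141 probe sets and 17097 named genes on the array. All 11 were bright enough to be tested, and Mmp9 alone had 2. The study measured total RNA on Affymetrix mouse arrays with perfect-match probes, and asked what Trib1 does to leukaemia in a mouse model of Down syndrome. The arrays form 4 groups of 3. Ts1Cje Trib1 and B6 Trib1 were cell lines of acute myeloid leukaemia that express Trib1 (Trib1 WT in the labels), on the Ts1Cje and the C57BL/6 (B6) background. Ts1Cje and B6 were hematopoietic cells of each background without Trib1, B6 being the wild type. The Ts1Cje genotype is a partial trisomy of chromosome 16, and none of the 10 genes lies on that chromosome. All 4 groups were grown in IMDM with 10% serum and 5 ng/ml of the cytokine IL-3, with no treatment. The labels used here do not give the number of mice or of independent lines behind the arrays, so the p-values measure only the spread between arrays, which may be technical. The label of the cells names no lineage, leukaemic state and Trib1 always came together, and in cultures of this kind fewer cells of a type and less RNA per cell cannot be told apart.

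Neutrophils fill their granules in waves as they mature. Primary granules with myeloperoxidase and elastase form in promyelocytes, secondary granules with lactoferrin and the cathelicidin precursor form in myelocytes and metamyelocytes, and tertiary granules with gelatinase form last. The later waves depend on C/EBP transcription factors, above all C/EBP epsilon, and Trib1 is a pseudokinase known for promoting the breakdown of the C/EBP alpha protein.

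All of the 10 genes but Mmp9 had an entry in the RefSeq table of promoter windows (mouse build GRCm38.p6). Each window runs from 250 bases before a start site to 50 after it. For Padi4, Fcnb and Cd177 that start site is not the outer end of the annotated gene. The windows of Ltf, Ngp, Camp and Padi4 are shown because Ltf, Ngp and Camp were all higher in Ts1Cje than in B6 and lower in Ts1Cje Trib1 than in B6 Trib1, whereas Padi4 did not pass between the Trib1 lines, and because only Ltf and Ngp among them hold the motif searched. They are printed 5′ to 3′ on the gene's strand with matches to the C/EBP core motif TTNNGNAA, read on either strand, in capitals. Ltf lies at chr9:111019042-111019341 (plus strand), Ngp at chr9:110419558-110419857 (plus strand), Camp at chr9:109849407-109849706 (minus strand) and Padi4 at chr4:140774154-140774453 (minus strand).
Ltf: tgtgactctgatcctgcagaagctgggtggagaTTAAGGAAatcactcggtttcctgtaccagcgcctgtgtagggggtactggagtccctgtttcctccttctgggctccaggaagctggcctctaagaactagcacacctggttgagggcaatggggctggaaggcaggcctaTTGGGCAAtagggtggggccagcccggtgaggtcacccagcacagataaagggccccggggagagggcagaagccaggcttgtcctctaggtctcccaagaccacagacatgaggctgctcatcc
Ngp: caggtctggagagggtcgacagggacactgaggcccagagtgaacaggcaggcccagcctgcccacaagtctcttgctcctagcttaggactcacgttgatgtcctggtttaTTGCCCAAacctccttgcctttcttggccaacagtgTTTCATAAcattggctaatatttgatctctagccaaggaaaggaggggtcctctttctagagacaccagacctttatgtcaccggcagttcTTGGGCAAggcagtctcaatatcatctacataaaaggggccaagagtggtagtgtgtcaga
Camp: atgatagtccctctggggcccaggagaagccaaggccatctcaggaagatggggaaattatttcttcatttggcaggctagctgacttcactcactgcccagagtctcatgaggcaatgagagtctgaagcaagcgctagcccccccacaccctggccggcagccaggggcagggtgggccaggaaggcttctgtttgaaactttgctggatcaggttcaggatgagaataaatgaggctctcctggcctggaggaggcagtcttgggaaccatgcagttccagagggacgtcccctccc
Padi4: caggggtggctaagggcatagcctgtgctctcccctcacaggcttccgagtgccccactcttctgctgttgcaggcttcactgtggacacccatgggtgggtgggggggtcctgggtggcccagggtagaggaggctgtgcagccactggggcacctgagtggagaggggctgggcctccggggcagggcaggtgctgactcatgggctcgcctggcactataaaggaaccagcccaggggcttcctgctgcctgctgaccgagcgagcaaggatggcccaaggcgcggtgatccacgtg
The C/EBP core was present in 7 of the 9 windows (77.8%), all but those of Camp and Padi4, and in 13365 of 32851 windows in the whole table (40.7%). The PU.1 core GAGGAA was in 5 of the 9 (55.6%) and in 28.3% of all windows, and the RUNX core ACCACA was in 1 of the 9 (11.1%) and in 16.8% of all. The GATA core GATAAG was in 0 of the 9 and in 7.44% of all. Both strands were read for each motif, and no 2 matches in these 9 windows overlapped. A match to these letters is a description of the sequence and not a bound site.

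The deposited values are intensities. Array medians lay between 30.5 and 32.0, the 40th percentile between 22.0 and 23.5, and the brightest probe set between 8041 and 8685. Arrays of the same group correlated at 0.997 to 0.999 and arrays of different groups at 0.915 to 0.993. For the 10 genes the coefficient of variation between the 3 arrays of a group lay between 0.439% and 14.2%, with a median of 3.26%. The Trib1 probe set bright enough to be tested averaged 45.9 ± 3.57 in Ts1Cje Trib1, 46.2 ± 2.88 in B6 Trib1, 72.0 ± 3.50 in Ts1Cje and 76.2 ± 7.23 in B6 (SD, n = 3 each). It was thus dimmer in the lines labelled Trib1, and since it is not given whether its probes lie in the expressed construct, it does not check those labels, which are used throughout as given.

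Of the 10 genes, 8 took the same course: higher in Ts1Cje than in B6 cells without Trib1, and lower in Ts1Cje Trib1 than in B6 Trib1 lines. Of all 12560 genes tested, 639 did so (5.09%), against 80.0% of the 10. Differences are given as log2 of intensity plus 15, an offset that understates changes of dim genes, and a difference passed where limma's p, adjusted over the 12560 genes, was below 0.05. In Ts1Cje against B6 cells 9 of the 10 genes passed as higher and 1, Mmp9, as lower, where 23.3% of all genes tested passed as higher and 29.3% as lower. In Ts1Cje Trib1 against B6 Trib1 lines 0 of the 10 passed as higher, 9 passed as lower and Padi4 did not pass, where 11.9% of all genes passed as higher and 9.63% as lower. Ts1Cje and B6 arrays overlapped for none of the 10 genes, with 9 higher and 1 lower (28.0% and 32.3% of all genes were higher and lower without overlap). Ts1Cje Trib1 and B6 Trib1 arrays overlapped for Padi4 alone, and the other 9 were lower (19.6% of all genes were higher and 16.9% lower without overlap). The median difference of the 10 genes was 1.17 without Trib1 and -1.38 with it, beside 0.01 and 0.00 over all genes.

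**Figure D1:**
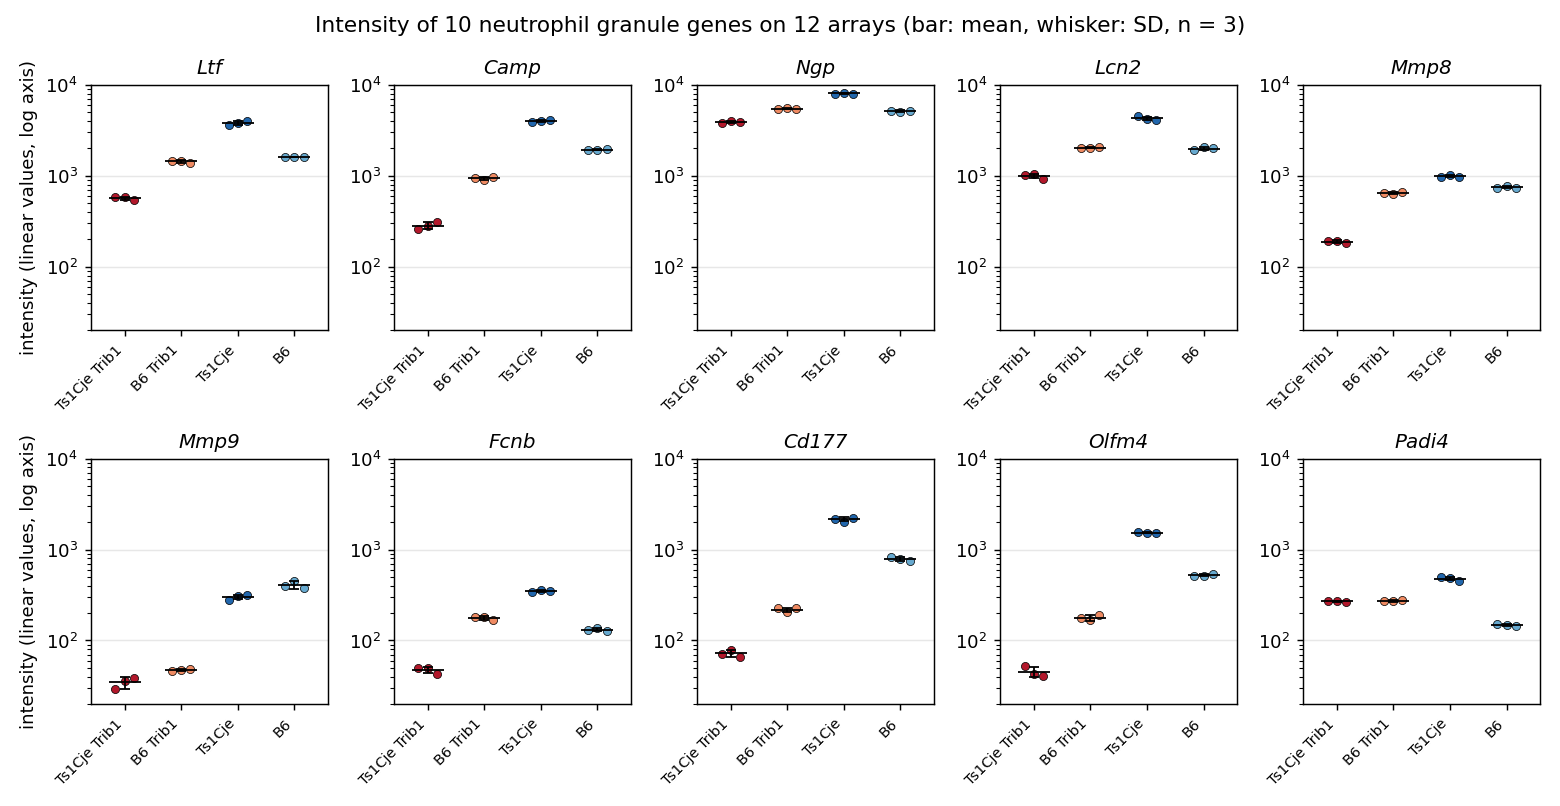
Intensity of each of the 10 genes on every array, on a log axis, with the groups in the order Ts1Cje Trib1, B6 Trib1, Ts1Cje and B6; points are arrays and bars are group means. Ts1Cje arrays are the brightest for 9 genes and Ts1Cje Trib1 arrays the dimmest for 9; the exceptions are Mmp9, brightest in B6, and Padi4, dimmest in B6.

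Ltf encodes lactoferrin, the iron-binding protein that defines secondary granules. Its intensities were 579, 579 and 539 in Ts1Cje Trib1 and 1474, 1461 and 1393 in B6 Trib1. Without Trib1 they were 3666, 3782 and 3988 in Ts1Cje and 1599.6, 1613 and 1609.6 in B6. All Ts1Cje arrays were above, and all Ts1Cje Trib1 arrays below, every array of the B6 groups, with no overlap between groups. Ltf was 1.24 higher in Ts1Cje than in B6 (adjusted p = 2.486e-10) and differed by -1.33 in Ts1Cje Trib1 against B6 Trib1 (adjusted p = 1.441e-10), 2.37-fold higher and 2.55-fold lower in mean intensity. The B6 Trib1 and B6 arrays, the groups next to each other in level, differed by -0.15 (adjusted p = 0.006763).

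Camp encodes the precursor of the antimicrobial peptide cathelicidin. It read 259, 282 and 311 in Ts1Cje Trib1 and 938, 910.2 and 977 in B6 Trib1. Its intensities without Trib1 were 3931, 4041 and 4159 in Ts1Cje and 1927, 1927 and 1987 in B6. The 4 groups stood apart with no overlap, both Trib1 groups below both groups without it. Camp was 1.05 higher in Ts1Cje than in B6 (adjusted p = 9.001e-09), and between the Trib1 lines the difference was -1.68 (adjusted p = 1.712e-10), which is 3.32-fold lower in Ts1Cje Trib1.

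Ngp, neutrophilic granule protein, is related in sequence to the cathelicidins and is among the brightest genes of these cells. It reached 3836, 4015 and 3892 in Ts1Cje Trib1 and 5464, 5584 and 5390.05 in B6 Trib1. In Ts1Cje it was 7975, 8144 and 8029, against 5231, 5055 and 5184 in B6. No groups overlapped, and Ts1Cje stood highest and Ts1Cje Trib1 lowest. The differences were 0.64 for Ts1Cje against B6 (adjusted p = 1.034e-08) and -0.48 for Ts1Cje Trib1 against B6 Trib1 (adjusted p = 2.89e-07), and this second value was the smallest in size among the 8 genes in the Trib1 lines. On the Ts1Cje arrays Ngp was the 2nd or 3rd brightest probe set, near the array maximum of 8617 to 8685, and the part of this in the size of its difference was not tested.

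Lcn2 encodes lipocalin 2, which withholds iron from bacteria by binding their siderophores. It gave 1010.4, 1038 and 929 in Ts1Cje Trib1 and 2025, 2019 and 2098 in B6 Trib1. Ts1Cje arrays held 4509, 4182 and 4145, against 1918, 2055 and 2003 in B6. Here the B6 Trib1 and B6 arrays overlapped, Ts1Cje lay above both and Ts1Cje Trib1 below both. Lcn2 was 1.10 higher in Ts1Cje than in B6 (adjusted p = 1.973e-09) and differed by -1.04 between Ts1Cje Trib1 and B6 Trib1 (adjusted p = 5.876e-09), 2.15-fold higher and 2.06-fold lower. Between B6 Trib1 and B6 the difference was 0.04 with a 95% interval of -0.07 to 0.15 (adjusted p = 0.4914).

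Mmp8 is the neutrophil collagenase, stored in secondary granules. Its values were 190.4, 193 and 182 in Ts1Cje Trib1 and 649.5, 638 and 665 in B6 Trib1. They were 975, 1015 and 977 in Ts1Cje and 736, 776 and 738 in B6. No groups overlapped, and the Ts1Cje Trib1 arrays stood far below the other 9. The difference between Ts1Cje and B6 was small, at 0.39 (adjusted p = 2.645e-06), and that between Ts1Cje Trib1 and B6 Trib1 was -1.71 (adjusted p = 6.874e-12), or 1.32-fold higher and 3.46-fold lower.

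Fcnb encodes ficolin B, a lectin that recognises microbial surfaces. It measured 49.6, 49.7 and 42.7 in Ts1Cje Trib1 and 181, 181 and 167 in B6 Trib1. Without Trib1 it measured 345, 358 and 353 in Ts1Cje and 132, 136 and 127 in B6. The groups did not overlap, and B6 Trib1 stood above B6. Fcnb was 1.32 higher in Ts1Cje than in B6 (adjusted p = 5.07e-10), and the difference of Ts1Cje Trib1 against B6 Trib1 was -1.62 (adjusted p = 1.214e-10), 3.73-fold lower.

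Cd177 encodes a surface protein held on secondary granule membranes, and Olfm4 encodes olfactomedin 4, a secondary granule protein. Cd177 stood at 71.2, 78.5 and 66.3 in Ts1Cje Trib1 and 226, 206 and 225 in B6 Trib1, and at 2167, 2029 and 2251 in Ts1Cje and 838, 792 and 748 in B6. Olfm4 stood at 52.0, 42.7 and 41.0 in Ts1Cje Trib1 and 175, 166 and 191 in B6 Trib1, and at 1559, 1541 and 1503 in Ts1Cje and 517, 513 and 542 in B6. For both genes every group was clear of the others, in the order Ts1Cje, B6, B6 Trib1 and Ts1Cje Trib1 from high to low. Cd177 was 1.42 higher in Ts1Cje than in B6 (adjusted p = 1.381e-09) and differed by -1.43 between the Trib1 lines (adjusted p = 1.977e-09). Olfm4 was 1.52 higher (adjusted p = 1.127e-09) and differed by -1.68 (adjusted p = 6.452e-10). In mean intensity these were 2.71-fold and 2.93-fold higher in Ts1Cje than in B6, and 3.04-fold and 3.93-fold lower in Ts1Cje Trib1 than in B6 Trib1.

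Mmp9 and Padi4 did not take this course. Mmp9 is gelatinase B, the enzyme that names the tertiary granules. Its brighter probe set gave 29.1, 35.5 and 38.8 in Ts1Cje Trib1 and 45.7, 47.2 and 48.6 in B6 Trib1, against 282, 305 and 318 in Ts1Cje and 397, 453 and 379 in B6. It was lower on every array of the Ts1Cje background than on any of the matching B6 group, with and without Trib1. The differences were -0.42 for Ts1Cje against B6 (adjusted p = 0.0004597) and -0.33 for Ts1Cje Trib1 against B6 Trib1 (adjusted p = 0.00626), that is 1.36-fold and 1.37-fold lower in mean intensity. The second probe set, with means of 24.5 ± 1.22 in Ts1Cje Trib1, 34.9 ± 7.29 in B6 Trib1, 184 ± 6.99 in Ts1Cje and 256 ± 13.3 in B6 (SD, n = 3), gave -0.44 and -0.33 for the same comparisons (adjusted p = 0.0006509 and 0.01272 over 20066 probe sets). Both probe sets were dim in the Trib1 lines, not far above the 40th percentile of the arrays, which sets a limit on how well their differences there are measured.

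Padi4 encodes a peptidylarginine deiminase that citrullinates histones when neutrophils release extracellular traps. It is a nuclear enzyme of late neutrophils and no granule protein. Padi4 gave 271, 271 and 265 in Ts1Cje Trib1 and 269, 271 and 279 in B6 Trib1, groups that overlapped. It gave 496, 487 and 456 in Ts1Cje and 151, 147 and 143 in B6, groups far apart. Padi4 was 1.61 higher in Ts1Cje than in B6 (adjusted p = 1.27e-11, 3.26-fold), the largest difference of the 10 genes in that comparison. Between the Trib1 lines its difference was -0.02 with a 95% interval of -0.10 to 0.06 (adjusted p = 0.7811).

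**Figure D2:**
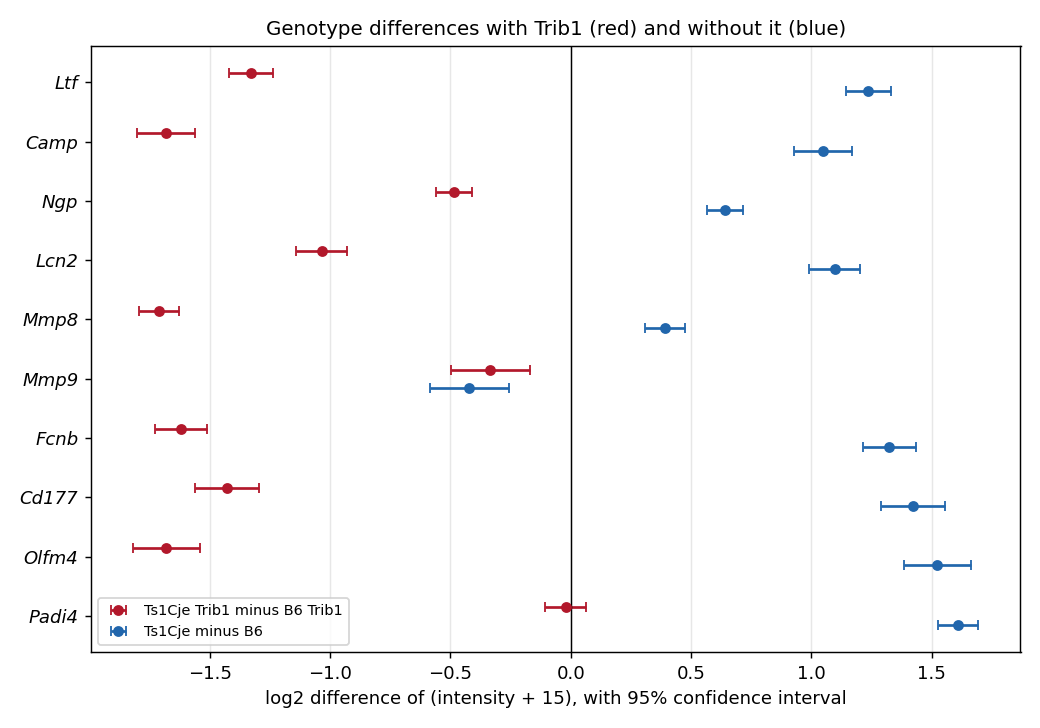
Log2 difference of each gene between Ts1Cje Trib1 and B6 Trib1 lines and between Ts1Cje and B6 cells, with 95% intervals from limma. In all, 8 genes lie above 0 without Trib1 and below 0 with it, Mmp9 lies below 0 in both, and the interval of Padi4 in the Trib1 lines spans 0.

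The difference between the 2 genotype effects was tested directly as an interaction, the Ts1Cje Trib1 minus B6 Trib1 difference less the Ts1Cje minus B6 difference. Of the 10 genes, 9 passed with a negative interaction, where 20.2% of all genes passed as negative and 28.4% as positive, and the median of the 10 was -2.35 beside 0.01 over all genes. Olfm4 had the largest, at -3.20 (adjusted p = 2.611e-11), followed by Fcnb at -2.94 (adjusted p = 5.959e-12). The smallest that passed were those of Padi4, -1.63 (adjusted p = 1.361e-10), and Ngp, -1.12 (adjusted p = 1.193e-09). For Mmp9 it was 0.09 with a 95% interval of -0.14 to 0.32 (adjusted p = 0.5093), and 0.11 on the second probe set (adjusted p = 0.437 over the probe sets).

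Set against the hematopoietic cells of their own background, the Ts1Cje Trib1 lines had less of every one of the 10 genes, whereas the B6 Trib1 lines did not. In Ts1Cje Trib1 against Ts1Cje all 10 passed as lower, where 26.8% of all genes passed as lower and 34.1% as higher, and none overlapped, where 28.5% of all genes were lower and 35.7% higher without overlap. Olfm4 was 33.9-fold lower in mean intensity (log2 difference -4.69, adjusted p = 1.066e-15), Cd177 29.8-fold lower (-4.64, adjusted p = 8.628e-16) and Camp 14.2-fold lower (-3.77, adjusted p = 2.277e-15). Olfm4 was dim in Ts1Cje Trib1, and its log2 difference reached -5.09 with a floor in place of the offset. The least were Padi4, 1.78-fold lower (-0.80, adjusted p = 4.705e-10), and Ngp, 2.06-fold lower (-1.04, adjusted p = 7.178e-12). The remaining 5, Ltf, Lcn2, Mmp8, Mmp9 and Fcnb, lay between -2.09 and -2.72.

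In B6 Trib1 against B6, 3 of the 10 genes passed as higher, 6 as lower and Lcn2 did not pass, where 34.1% of all genes passed as higher and 31.1% as lower. The same 9 did not overlap, where 38.6% of all genes were higher and 34.0% lower without overlap. Thus the share of the 10 passing as higher was near that of all genes. The 4 clear falls were Mmp9, 8.68-fold lower (-2.77, adjusted p = 1.958e-12), Cd177, 3.62-fold lower (-1.79, adjusted p = 2.073e-11), Olfm4, 2.95-fold lower (-1.49, adjusted p = 2.087e-10), and Camp, 2.07-fold lower (-1.04, adjusted p = 1.965e-09). Padi4 rose 1.86-fold (0.83, adjusted p = 5.338e-10) and Fcnb 1.34-fold (0.38, adjusted p = 1.925e-05). Small differences were seen for Mmp8 (-0.20, adjusted p = 0.0005146), Ltf (-0.15) and Ngp (0.09, adjusted p = 0.03921). Those 3 and Lcn2 depended on the scaling. The Ngp call was lost with quantile normalization (0.06, adjusted p = 0.1744), and those of Ltf (-0.05, adjusted p = 0.4111) and Mmp8 (-0.10, adjusted p = 0.0755) were lost when arrays were centred on the median of the tested probe sets, an alternative added after the data were seen. Under it Lcn2 passed as higher (0.14, adjusted p = 0.01028), which left 4 of the 10 genes higher and 4 lower.

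**Figure D3:**
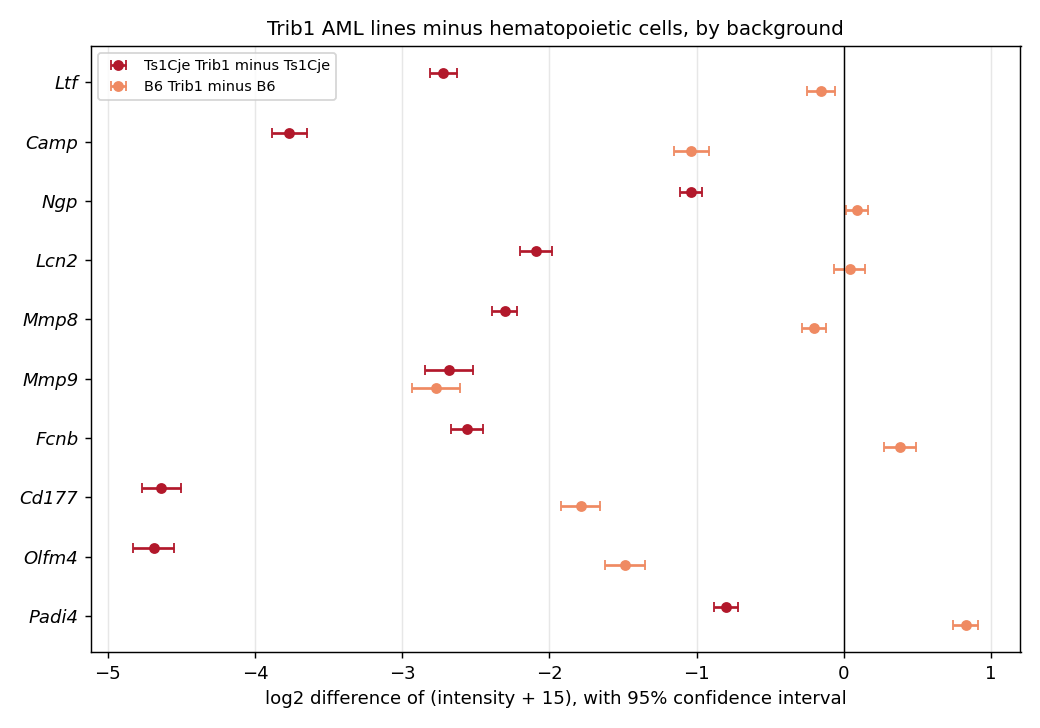
Log2 difference of each gene between Ts1Cje Trib1 lines and Ts1Cje cells and between B6 Trib1 lines and B6 cells, with 95% intervals from limma. All 10 genes lie below 0 on the Ts1Cje background, while on the B6 background they spread from -2.77 for Mmp9 to 0.83 for Padi4.

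Among themselves the 10 genes followed closely similar profiles apart from Mmp9 and Padi4. Over the 12 arrays, which fall into 4 groups and so hold few independent points, the Pearson correlation of log2 values within the other 8 lay between 0.87 and 0.996 in all 28 pairs, with the highest for Cd177 and Olfm4. Those 8 were grouped by their shared course on these same arrays, so high correlations among them follow in part from that choice. Against the mean standardised profile of the 10 genes the correlation was 0.997 for Ltf and 0.990 for Lcn2, and only 0.76 for Mmp9 and 0.44 for Padi4. That mean includes the gene compared with it. Mmp9 and Padi4 differed most from each other, with a correlation of -0.12.

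The 8 genes outside the list whose profile was most like that mean, among 1571 genes with a range of group means of at least 1, were F13a1, Alas1, Dgat2, Plaur, Sqor, Stom, Tnfsf13 and Fpr2, with correlations of 0.999 for F13a1 to 0.995 for Fpr2 over 12 arrays. F13a1, the A subunit of coagulation factor XIII and one of the monocyte and macrophage markers listed here, averaged 217 ± 3.08 in Ts1Cje Trib1, 544 ± 18.2 in B6 Trib1, 1790.2 ± 80.8 in Ts1Cje and 722 ± 31.1 in B6 (SD, n = 3). Alas1, the first enzyme of heme synthesis, averaged 456 ± 2.25 in Ts1Cje Trib1, 841 ± 28.2 in B6 Trib1, 1650.0 ± 55.1 in Ts1Cje and 957 ± 33.8 in B6. As with most of the 10 genes, Ts1Cje was highest and Ts1Cje Trib1 lowest, with both B6 groups between. Fpr2, a formyl peptide receptor that also binds the cathelicidin peptide, averaged 126 ± 7.29, 253 ± 7.53, 694 ± 28.1 and 355 ± 3.84 in the same 4 groups.

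Most other genes of late neutrophil granules and mature neutrophils were higher in Ts1Cje than in B6 and lower in Ts1Cje Trib1 than in B6 Trib1. Of 24 measured from a list of 28, 20 were higher in Ts1Cje than in B6 and 0 lower, and the median was 0.83. Ptx3, Hvcn1, Csf3r and Cxcr2 did not pass. Of all genes, 23.3% passed as higher and 29.3% as lower in this comparison. In Ts1Cje Trib1 against B6 Trib1, 0 were higher and 23 lower, with Ptx3 not passing, and the median was -0.53. There 11.9% of all genes passed as higher and 9.63% as lower. The interaction passed as negative in 22 of 24, with Ptx3 (0.05) and Cxcr2 (-0.24) not passing. It passed as negative in 20.2% of all genes and as positive in 28.4%. The largest 4 were those of Ceacam10 (-3.18, adjusted p = 4.443e-12), Hp (-2.89, adjusted p = 2.611e-11), Cybb (-2.81, adjusted p = 3.574e-12) and Lrg1 (-2.80, adjusted p = 5.215e-12). Hp encodes haptoglobin, which neutrophils store in secondary granules, and averaged 174 ± 19.8 in Ts1Cje Trib1, 693 ± 8.70 in B6 Trib1, 1799 ± 9.76 in Ts1Cje and 900.3 ± 18.3 in B6 (SD, n = 3). Cybb encodes the membrane subunit of the phagocyte NADPH oxidase, which is carried on the same granules.

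The primary granule genes, made at an earlier stage, were higher in Ts1Cje cells, and 5 of 8 were lower in the Ts1Cje Trib1 lines. All 8 measured of 12 listed were higher in Ts1Cje than in B6, with a median of 0.38, where 23.3% of all genes passed as higher. Between the Trib1 lines 11.9% of all genes passed as higher and 9.63% as lower. For the interaction 20.2% of all genes passed as negative and 28.4% as positive. In Ts1Cje Trib1 against B6 Trib1, 0 were higher, 5 were lower and 3, Ctsg, Serpinb1a and Gusb, did not pass, with a median of -0.53. All 8 passed with a negative interaction, the largest being Elane, neutrophil elastase, at -2.37 (adjusted p = 3.986e-10), then Mpo, myeloperoxidase, at -1.56 (adjusted p = 7.74e-11), Prtn3, proteinase 3, at -1.40 (adjusted p = 2.492e-10) and Lyz2, lysozyme, at -1.07 (adjusted p = 1.894e-09). Mpo differed by 0.16 between Ts1Cje and B6 (adjusted p = 0.001867) and by -1.40 between Ts1Cje Trib1 and B6 Trib1 (adjusted p = 2.127e-11). The difference between the lists was not tested.

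**Figure D4:**
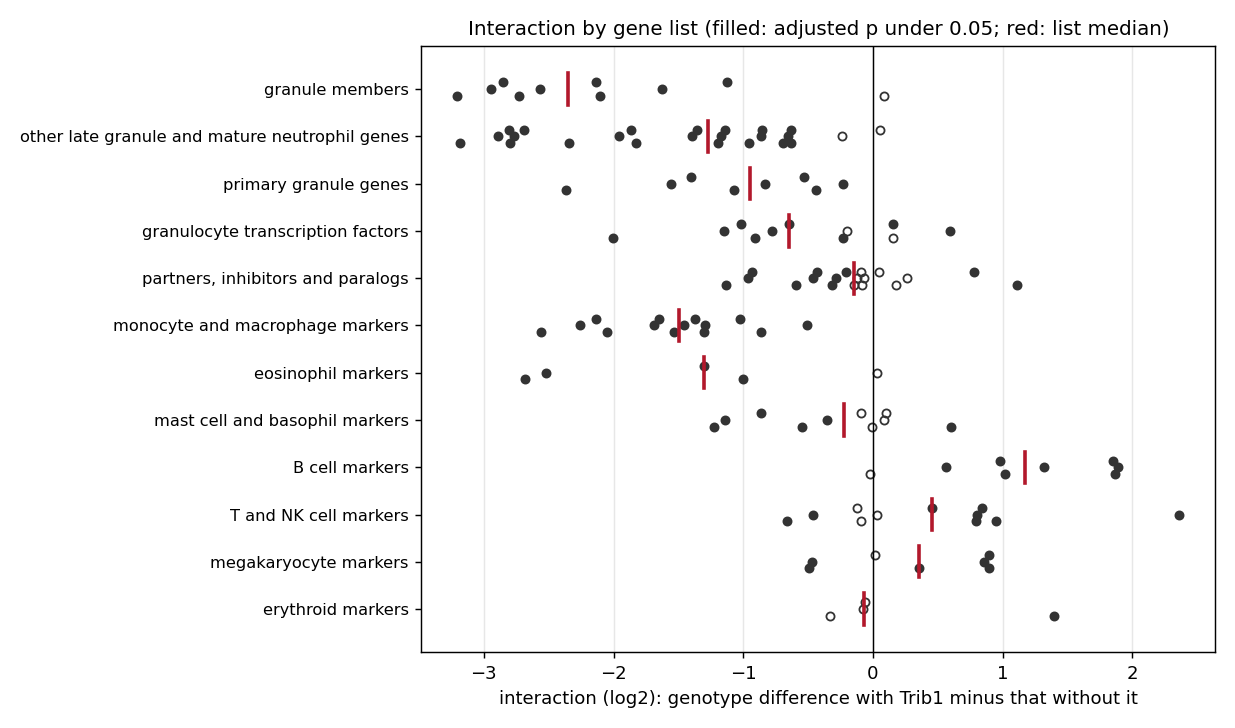
Interaction (log2) of each measured gene in the granule set and in the other lists, one row per list, with the list median as a bar; negative values mean a lower Ts1Cje to B6 difference with Trib1 than without. The granule set has a median of -2.35, the other late granule and mature neutrophil genes -1.27, the primary granule genes -0.95 and the monocyte and macrophage markers -1.49.

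Of 11 measured transcription factors of granulocyte development, 8 were higher and 3 lower in Ts1Cje against B6, where 23.3% of all genes passed as higher and 29.3% as lower. The number lower was thus near the share of all genes. In Ts1Cje Trib1 against B6 Trib1, 1 was higher, 6 were lower and 4 did not pass, where 11.9% of all genes passed as higher and 9.63% as lower. The 1 higher was Runx1 (0.44, adjusted p = 0.0003896), a gene of the trisomic segment, named after its values were seen. Runx1 was also among the 8 higher in Ts1Cje against B6 (0.29, adjusted p = 0.003572). Cebpd had the largest interaction, -2.00 (adjusted p = 4.911e-11), and averaged 106 ± 4.04 in Ts1Cje Trib1, 295 ± 8.07 in B6 Trib1, 1059 ± 49.9 in Ts1Cje and 674 ± 13.1 in B6 (SD, n = 3). It was followed by Gfi1, a repressor needed for neutrophil formation (-1.15, adjusted p = 8.388e-07), Spi1, which encodes PU.1 (-1.02, adjusted p = 1.802e-07), and Cebpb (-0.91, adjusted p = 2.215e-08). Cebpa, like most of these factors, was higher in Ts1Cje than in B6 (0.35, adjusted p = 0.0003748). Against the cells without Trib1 it went another way than these 4. Its mRNA was 1.19 higher in B6 Trib1 than in B6 (adjusted p = 1.333e-09) and 0.98 higher in Ts1Cje Trib1 than in Ts1Cje (adjusted p = 6.333e-09). Runx1 was higher in both of these comparisons too (0.62, adjusted p = 3.645e-06, and 0.78, adjusted p = 2.669e-07). Between the Trib1 lines Cebpa differed by 0.15 (adjusted p = 0.1141), and its interaction of -0.20 did not pass (adjusted p = 0.06713). The protein was not measured, and Cebpe was not analysed here.

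Inhibitors, receptors, partners and paralogs of the 10 proteins gave a mixed picture, with most not passing between the Trib1 lines. Of 19 measured from 21 listed, 7 were higher, 1 was lower and 11 did not pass in Ts1Cje against B6, where 23.3% of all genes passed as higher and 29.3% as lower. In Ts1Cje Trib1 against B6 Trib1, 1 was higher, 5 were lower and 13 did not pass, where 11.9% of all genes passed as higher and 9.63% as lower. Timp1, the inhibitor that binds gelatinase B, averaged 32.7 ± 2.57 in Ts1Cje Trib1, 28.9 ± 3.78 in B6 Trib1, 549 ± 18.8 in Ts1Cje and 411 ± 34.7 in B6 (SD, n = 3). Like Mmp9 it was dim in both Trib1 groups, with differences of -3.56 for Ts1Cje Trib1 against Ts1Cje (adjusted p = 3.133e-14) and -3.28 for B6 Trib1 against B6 (adjusted p = 1.44e-13). Padi2, the paralog of Padi4, was 1.84 higher in Ts1Cje Trib1 than in Ts1Cje (adjusted p = 8.17e-12) and 1.67 higher in B6 Trib1 than in B6 (adjusted p = 4.516e-11), and its interaction of 0.18 did not pass (adjusted p = 0.1074). Timp3, a metalloproteinase inhibitor, had a positive interaction of 1.11 (adjusted p = 9.347e-07). Reck (-1.14, adjusted p = 5.401e-06), a membrane-bound inhibitor of Mmp9, Lrp1 (-0.96, adjusted p = 9.651e-05) and Olfm1 (-0.93, adjusted p = 8.093e-07) had negative ones.

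Markers of some other cell types differed between the groups as well, and their part in these results was not tested. Of 14 measured monocyte and macrophage markers, 12 were higher and 1 lower in Ts1Cje against B6. Between the Trib1 lines 1 was higher and 11 were lower in Ts1Cje Trib1. Of all genes 23.3% passed as higher and 29.3% as lower in the first comparison, and 11.9% and 9.63% in the second. All 14 passed with a negative interaction (median -1.49), as did 4 of 5 eosinophil markers (median -1.30). Of 8 B cell markers 7 passed with a positive one. Over all genes 20.2% passed as negative and 28.4% as positive. In Ts1Cje against B6, 0 of the 8 B cell markers were higher and 7 lower. Between the Trib1 lines 1 of them was higher, 0 were lower and 7 did not pass. Mrc1 and Mpeg1 were the brightest monocyte and macrophage markers on average. Mrc1, the macrophage mannose receptor, averaged 84.0 ± 7.32 in Ts1Cje Trib1, 208 ± 19.2 in B6 Trib1, 4537 ± 207 in Ts1Cje and 4147 ± 61.8 in B6 (SD, n = 3). The summed intensity of the list was 2681 to 2716 in Ts1Cje Trib1, 4738 to 4921 in B6 Trib1, 18699 to 19235 in Ts1Cje and 12723 to 12999 in B6. Eosinophil markers (5 measured of 9 listed) summed to 569 to 574 in Ts1Cje Trib1, 1347 to 1452 in B6 Trib1, 881 to 999 in Ts1Cje and 453 to 486 in B6. Mast cell and basophil markers (10 of 12) were far brighter in the lines, at 22876 to 23771 in Ts1Cje Trib1 and 20456 to 20779 in B6 Trib1, against 5133 to 5404 in Ts1Cje and 3412 to 3448 in B6. T and NK cell markers (11 measured) had 10146 to 10632 in Ts1Cje Trib1 and 9052 to 9290.4 in B6 Trib1, against 1900.5 to 1953 in Ts1Cje and 1967 to 2093 in B6. That sum was carried by the granzyme genes Gzmb, with 7613 ± 246 in Ts1Cje Trib1, 6955 ± 131 in B6 Trib1, 602 ± 56.6 in Ts1Cje and 392 ± 16.6 in B6 (SD, n = 3), and Gzma. Of the 11 genes 3 were higher and 6 lower in the Trib1 lines on either background. Over all genes 34.1% passed as higher on either background, and 31.1% as lower on B6 and 26.8% on Ts1Cje. The number higher was thus near the share of all genes. The 6 lower were Cd3e, Cd3g, Cd3d, Cd8a, Bcl11b and Klrd1, named after their values were seen. B cell markers (8 of 10) were dim in the lines, at 217 to 237 in Ts1Cje Trib1 and 211 to 236 in B6 Trib1, against 1985 to 2117 in Ts1Cje and 5226 to 5449.6 in B6. Of those 8, 3 in Ts1Cje Trib1 and 2 in B6 Trib1 were dim, at or below the 40th percentile, on all 3 arrays. Megakaryocyte markers (7 of 8) had 12090.2 to 12738 in Ts1Cje Trib1 and 14428 to 14748 in B6 Trib1, against 6172 to 6379 in Ts1Cje and 7092 to 7358 in B6. The 4 erythroid markers measured summed to between 582 in Ts1Cje and 2127 in Ts1Cje Trib1. That sum was carried by the globin gene Hba-a1, with 1928 ± 51.0 in Ts1Cje Trib1 and 471 ± 3.11 in Ts1Cje (SD, n = 3). Of these 7 sums, only the monocyte and macrophage sum and the eosinophil sum were, like 8 of the 10 granule genes, higher in Ts1Cje than in B6 and lower in Ts1Cje Trib1 than in B6 Trib1.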

How the data were processed

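The authors deposited 1 table of intensities for 12 Affymetrix arrays, and the submitters' processing notes name MAS5; the scaling is not given in the sources used here. RNA (100 ng per array) was labelled with biotin, per the labels' protocols. Probe sets were kept where the deposited intensity exceeded the array's 40th percentile on at least 3 arrays, which left 20066 probe sets for 12560 genes. A gene was represented by its kept probe set with the highest mean, 4845 genes having several. Values became log2 (intensity + 15), 15 being the 20th percentile of the deposited values, and were fitted with limma 3.58.1 in R 4.3.3 as 4 group means, with Benjamini-Hochberg adjustment over all genes. The fit was tested on simulated data.

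The genes and lists were chosen with earlier results of these data known, so no list is independent evidence. Besides the 10, the text names the 8 genes with the most similar profile, the 4 genes of largest interaction in each related list, direct partners, and the brightest of cell type markers. Genes named as not passing were named after their values were seen. The replicate numbers did not pair the arrays.

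Tried as alternatives were other scalings (quantiles, medians), offsets and filters, probe set averaging, a replicate block and leaving out arrays. The number of arrays limits the precision.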

Additional observations from a re-analysis of the deposited data

Results flagged for a closer look

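Of the 10 granule genes, 9 are listed because the Ts1Cje to B6 difference in the Trib1 lines differed, by the interaction test, from that in cells without Trib1. The interaction was -3.20 for Olfm4, -2.94 for Fcnb, -2.85 for Cd177 (adjusted p = 5.137e-11), -2.73 for Camp (adjusted p = 2.87e-11) and -2.57 for Ltf (adjusted p = 5.215e-12). It was -2.13 for Lcn2 (adjusted p = 1.002e-10), -2.10 for Mmp8 (adjusted p = 1.082e-11), -1.63 for Padi4 and -1.12 for Ngp. For Padi4 the difference in the cells without Trib1 passed and that in the Trib1 lines did not. For the other 8 both genotype differences passed, with opposite signs. Like those 8 genes, the summed monocyte and macrophage markers and the summed eosinophil markers were higher in Ts1Cje than in B6. Both sums were lower in Ts1Cje Trib1 than in B6 Trib1, with values given above, and their part in these interactions was not tested.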

How the results depend on the processing

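The counts of the 10 granule genes that passed were the same under every alternative run in 4 of the 5 tests, 10 for Ts1Cje against B6, 9 for Ts1Cje Trib1 against B6 Trib1, 10 for Ts1Cje Trib1 against Ts1Cje and 9 for the interaction, while for B6 Trib1 against B6 they ranged from 8 to 9. Of 1240 values for single genes, 1225 kept direction and call, 11 lost the call, 1 gained it and 3 reversed. The 3 were Mmp9's interaction, which never passed, at -0.011 with an offset of 1, -0.022 with a floor in place of the offset and -0.0035 with centring on the tested probe sets. In B6 Trib1 against B6 the Ngp call was lost without any 1 of the B6 arrays 1, 2 and 3 (adjusted p = 0.0524, 0.1264 and 0.0732), without B6 Trib1 array 1 or 2 (0.07557 and 0.1244), with median centring (0.1101), with only these 2 groups in the fit (0.05453) and with the replicate block (0.059). With the replicate block 10, 9, 8, 10 and 9 genes passed in the order of the tests Ts1Cje against B6, the Trib1 lines, B6 Trib1 against B6, Ts1Cje Trib1 against Ts1Cje and interaction; same-numbered arrays correlated at -0.45 to 0.35 and 3 of 12 were closest to their own number. The cause of these changes was not tested. The median of the 10 genes moved to 1.15 with median centring and 1.25 with centring on the tested probe sets for Ts1Cje against B6, and to -0.20 and -0.074 for B6 Trib1 against B6. It moved to -1.47 with an offset of 1 and -1.48 with a floor for Ts1Cje Trib1 against B6 Trib1, to -2.81 and -2.83 for Ts1Cje Trib1 against Ts1Cje, where averaging probe sets gave -2.53, and to -2.39 with each for the interaction, where centring on the tested probe sets gave -2.44. Leaving out 1 array gave medians of 1.15 to 1.18 for Ts1Cje against B6, -1.41 to -1.34 for the Trib1 lines and -2.37 to -2.31 for the interaction. Centring on the tested probe sets shifted the median of all genes in B6 Trib1 against B6 to 0.13, beside 0.03 as reported. It gave 4719 genes higher and 2538 lower in Ts1Cje against B6, beside 2925 and 3677, 6356 and 2751 in B6 Trib1 against B6, beside 4283 and 3907, and 2417 positive and 3700 negative interactions, beside 3568 and 2541. Under it 12 partners, inhibitors and paralogs were higher in Ts1Cje than in B6, beside 7. Signal over background limits Mmp9 in both Trib1 groups and Fcnb and Olfm4 in Ts1Cje Trib1, all dim; with a floor the differences of Fcnb and Olfm4 between the Trib1 lines were -1.90 and -1.98, beside -1.62 and -1.68.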

Other observations

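Camp, Ngp and Ltf lie near each other on mouse chromosome 9, and the stretch from Camp through Ltf holds 46 annotated genes in GRCm38.p6. Of these, 18 besides the 3 were measured. Their median difference was 0.04 in Ts1Cje against B6 (3 higher, 5 lower) and 0.01 in Ts1Cje Trib1 against B6 Trib1 (2 higher, 3 lower). Of all genes 23.3% passed as higher and 29.3% as lower in the first comparison, and 11.9% and 9.63% in the second. The median interaction of the 18 was 0.02, from -0.21 for Map4 to 0.70 for Smarcc1, with 5 positive and 2 negative. Over all genes 28.4% passed as positive and 20.2% as negative, so the number positive was near the share of all genes. The interaction of Camp was -2.73, that of Ngp -1.12 and that of Ltf -2.57. Map4 and Smarcc1 were named after their values were seen, as the ends of that range.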
